A study of Mus musculus with 4 samples.

Results

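Forkhead (Fox), Sox and T-box (Tbx) genes encode 3 large families of transcription factors. The 65 genes described here are the protein-coding genes whose symbols begin with Fox, a letter from a to s and a digit, or consist of Sox or Tbx and a number, in a GRCm38 annotation (GENCODE M21) of the 55401 genes in the tables. They comprise 42 Fox, 12 Sox and 11 Tbx genes. Foxa1, Foxa2, Sox1, Sox2, Sox3, Sox4, Sox7, Sox17, Sox18, Tbx3 and Tbx6 were left out. Of the 65 genes, 36 had enough counts to be tested, namely 23 Fox, 10 Sox and 3 Tbx genes.

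RNA was measured in 4 libraries of EB3, a mouse embryonic stem cell line kept in serum and LIF on gelatin. One library came from the parental line (genotype WT), 1 from EB3-derived cells with an empty vector (WT with the vector), and 2 from EB3-derived cells with NUP98-HOXA9, a leukaemia fusion of a nucleoporin to a HOX homeodomain (fusion replicates 1 and 2). The labels do not say how the fusion was expressed or whether its replicates are separate clones or cultures, so the p-values reflect the spread between these particular samples, which may be technical. The parental and empty-vector libraries together form the wild-type or control group, and only 1 library controls for the vector. Below, paired values give the parental library before the empty-vector library, and fusion replicate 1 before replicate 2.

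The libraries held 19021386 to 21151729 estimated counts. Hoxa9 reads separated the groups as the labels do, with 0 counts in each control and 3785 and 2790 counts with the fusion, and Nup98 stood at 216 and 218 against 310 and 296 CPM; reads of the fusion and of the endogenous genes are not separated in the tables. Of 9 pluripotency markers, 0 passed the edgeR test in either direction, and their sum was 5049 and 5277 against 6051 and 5789 CPM (CPM are counts scaled to the library total and by TMM, edgeR's trimmed-mean factor). Of 9 endoderm markers, 8 were tested and all 8 passed as higher in the fusion libraries, where 2.83% of all genes tested did. Their sum was 87 and 73.8 against 718 and 663 CPM, and the endoderm marker Afp had at most 5 counts in any library. Most of the sum in each library came from Col4a1 (25 and 18.2 against 384 and 307 CPM) and Lama1 (48.9 and 47.2 against 227 and 206 CPM). Gata6, Sox17 and Foxa2 had enough counts to be tested through the fusion libraries only, so their direction was partly fixed in advance. None of the tested mesoderm (7), trophectoderm (8) or fibroblast (7) markers passed, and of 3 tested neural markers Sox1 was higher. The medians of the mesoderm, trophectoderm and fibroblast lists were -0.07, 0.82 and 0.36 on the log2 scale. With 2 libraries a side, failing to pass does not show that a marker was unchanged. In these bulk libraries more cells of a type and more RNA per cell cannot be told apart.

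Forkhead proteins bind DNA through a winged-helix domain, Sox proteins bend DNA through an HMG box related to that of SRY, and T-box proteins bind through the T domain. Many members of each family act as selectors of cell identity in the embryo and are silent in pluripotent cells. Others, such as the FOXO and FOXK subfamilies, are broadly expressed and respond to nutrients and stress.

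Levels per length were compared with the deposited TPM (transcript abundance scaled by length and library total). In the wild-type cells Foxh1 stood highest by mean level, with 43.3 TPM in the parental and 45.8 TPM in the empty-vector library. FOXH1 is the DNA-binding partner of the SMADs that carry Nodal signals. Foxm1, a driver of late cell cycle genes, stood at 47.1 and 38.9 TPM, and Foxp1, a repressor with roles in heart and lymphocyte development, at 35.8 and 49.2 TPM. Sox13, Foxp4, Sox15, Foxk2, Foxo4, Foxo3 and Sox12 followed with wild-type means from 36.9 down to 24.1 TPM. Each neighbouring pair among these 10 genes overlapped between the wild-type libraries, so the order of neighbours is not resolved.

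In the fusion libraries the first places by mean TPM went to Sox15 (53.3 TPM), Foxh1 (51.4 TPM) and Foxo3 (50.5 TPM), which stood in places 6, 1 and 9 in wild-type cells. Foxh1 had 70.9 TPM in fusion replicate 1 but 31.8 TPM in replicate 2, below Foxp4 there (45.6 TPM), so these places are not resolved. Sox15, the only member of Sox group G and a factor known from mouse embryonic stem cells, had 19.8 and 46.5 against 50 and 56.6 TPM. Its empty-vector value lay close to the fusion values. The Fox genes summed to 334 and 377 against 419 and 401 TPM, the Sox genes to 98.6 and 112 against 115 and 127 TPM, and the Tbx genes to 2.23 and 5.18 against 2.06 and 3.3 TPM. The T-box genes listed here thus made up a small part of the total in every library.

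**Figure D1:**
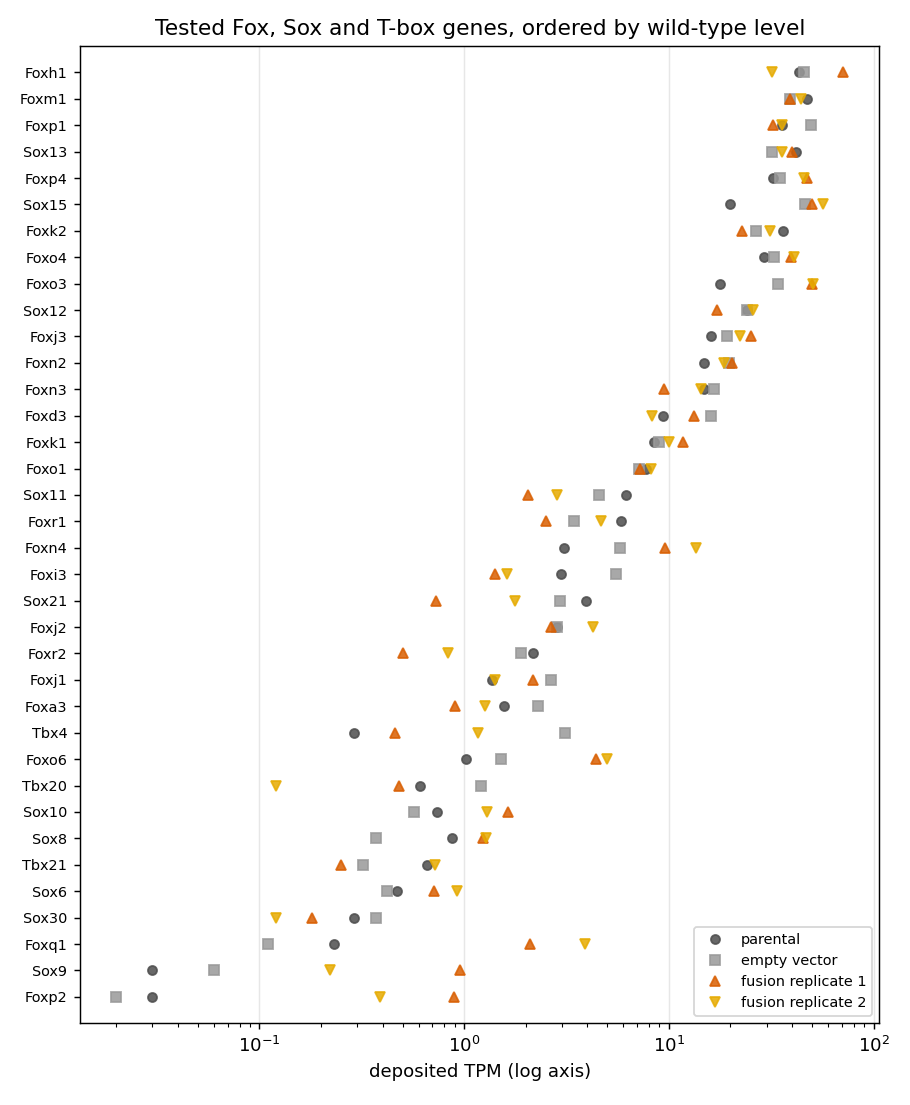
Deposited TPM (log axis) of the 36 tested Fox, Sox and T-box genes in each of the 4 libraries, ordered by their wild-type mean. Most genes above 10 TPM sit at similar levels in all 4 libraries, whereas Foxq1, Sox9 and Foxp2 at the bottom lie well to the right in both fusion libraries.

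The comparison of cells with and without the fusion asked which of these factors differ. Foxq1 rose from 0.833 and 0.371 CPM to 6.77 and 12.2 CPM, and it was the only one of the 36 tested genes to pass in either direction. The test was edgeR's quasi-likelihood test on 16511 genes with Benjamini-Hochberg adjustment at 0.05. Of all genes tested, 2.83% passed as higher with the fusion, 0.581% as lower and 3.42% in either direction, so 1 higher and 0 lower among 36 is near the background. At an unadjusted p under 0.05, 6 of the 36 were higher and 4 lower, where the background was 12.7% and 7.41%. DESeq2's Wald test called 4 higher (background 5.57%) and 3 lower (background 2.64%), and limma on log2(TPM + 1) called Foxq1 alone (background 2.85% higher and 0.533% lower). With no count filter all 28816 genes with at least 1 count were fitted, which leaves out Foxe3, Foxi1 and Foxl1. In that fit 7 of the rest of the 65 were called higher (background 4.56%) and 4 lower (2.19%).

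Whether Foxq1 passed with fewer libraries depended on the fit. When each library was left out in turn and the other 3 were refitted over the same genes, its log2 fold change ran from 3.47 to 4.65 and its adjusted p from 0.0231 to 0.0471. In such a fit 1 group holds a single library, which is assumed to vary like the remaining pair, so these values are no independent support. Without the parental library it was the only call (background 1.33% higher and 0.4% lower), and likewise without fusion replicate 1 (0.939% and 0.0606%). Without the empty vector Foxo3 joined it (1.51% and 0.424%), and without fusion replicate 2 Foxp2 and Sox9 did (2.23% and 1.16%). A fit of all 4 libraries as 3 groups, which sets the fusion against 1 control at a time but takes scaling from all 4, rests on the same pairings as the fits without the other control. In it none of the 36 passed, where 0.509% of all genes were higher and 0.121% lower against the parental line, and 0.388% and 0.109% against the empty vector.

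Both fusion libraries lay above both wild-type libraries for 14 of the 36 genes and below them for 9, against 27.1% and 24.2% of all genes tested. A fitted difference of at least 2-fold in either direction was found for 12 of the 36 (background 16.6%). The median log2 fold change was -0.03 for the 36 genes and -0.00 for all genes tested. The median size without regard to sign was 0.55 for the 36 and 0.33 for all genes. Of the 36 genes, 29 had a wild-type mean of at least 1 CPM. Among the other 7, Foxq1, Foxp2, Sox9 and Sox8 owe their passage through the count filter to the fusion cells, which were the only group with both libraries above it. Sox30 passed it through the controls by the same measure, so the direction of these named genes was partly fixed by the filter. Tbx21 passed it in both controls but also in fusion replicate 2.

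**Figure D2:**
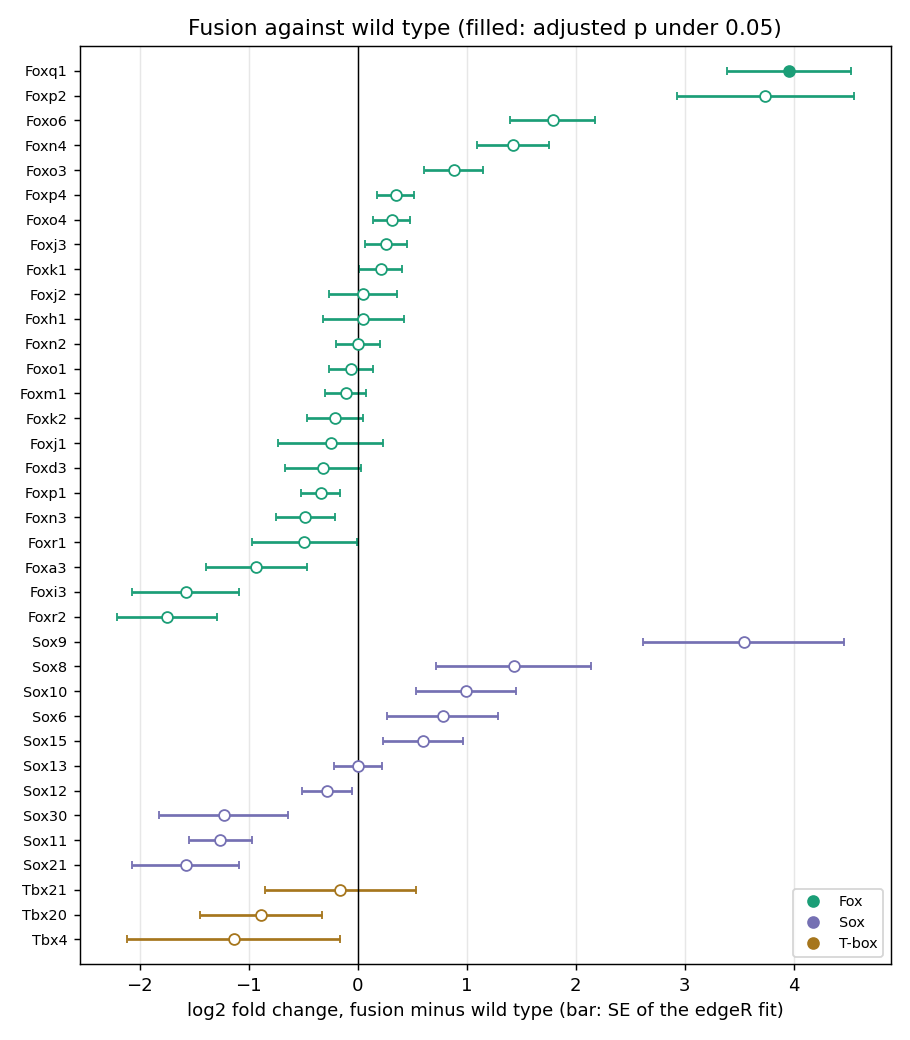
Log2 fold change of the fusion over the wild-type group for the 36 tested genes, with the SE of the edgeR fit as a bar and a filled point for an adjusted p under 0.05. Foxq1 at 3.96 is the only filled point, and most Fox genes lie within 1 log2 unit of 0.

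Foxq1 encodes a forkhead factor of epithelia that is best known from hair follicles and from epithelial plasticity in tumours. The gene (ENSMUSG00000038415) lies on chromosome 13, 31556134 to 31560976, plus strand, in GRCm38. It had 16 counts in the parental library, 7 with the empty vector, 135 in fusion replicate 1 and 268 in replicate 2. Both fusion libraries were above both controls. The log2 fold change was 3.96 (SE 0.57, adjusted p = 0.0217, edgeR). The ratio of group counts was 15.9 with a 95% exact binomial interval of 10.5 to 25.4. That interval covers counting error only and leaves out the spread between libraries of a group. Against the parental line the log2 fold change was 3.50 in the fit of 3 groups (adjusted p = 0.0784) and 3.48 in the refit without the empty vector (adjusted p = 0.0413). Against the empty vector it was 4.65 in both, with adjusted p = 0.0558 and 0.0231, so the call with 1 control changed with the fit. The endoderm markers given above were higher in the same libraries, and their part in this result was not tested.

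Foxq1 is the first of 3 forkhead genes that lie side by side on chromosome 13, followed by Foxf2 and Foxc1. Foxf2, a factor of gut and craniofacial mesenchyme, had 0 counts in each control and 6 and 9 counts with the fusion. Set against a floor of 3 counts over the wild-type group, the fusion counts gave a ratio of 4.54. That ratio makes no allowance for error in the fusion counts. Foxc1, which acts in mesoderm, eye and skull development, had 0 and 2 counts against 9 and 13, a ratio of 9.99 with a 95% exact binomial interval of 2.46 to 87.7. Such intervals cover counting error only, and such floors cover it in the wild-type counts only. Both genes fell under the count filter of the main test.

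Gmds, an enzyme of GDP-fucose synthesis next to Foxc1, stood at 8.75 and 5.94 against 8.32 and 9.71 CPM, so its groups overlapped (log2 fold change 0.30). Over 36 tested genes within 5 Mb of Foxq1 the median log2 fold change was -0.13. The transcript A530084C06Rik on the opposite strand of Foxq1 had at most 3 counts in any library.

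The FOXO factors are held out of the nucleus by AKT when insulin or growth factor signals are high, and drive stress and metabolic genes when these are low. Foxo3 had more counts in the fusion libraries than any other of the 65 genes. It stood at 86.9 CPM in the parental library, 154 CPM with the empty vector, and 223 and 221 CPM with the fusion. The fusion libraries agreed closely and lay above both controls, but the controls differed from each other by more than the fusion replicates did. The log2 fold change was 0.88 (SE 0.27) and missed the threshold (edgeR adjusted p = 0.133). Without the empty-vector library it was 1.34 (adjusted p = 0.0411), but the fit of 3 groups gave 1.35 against the parental line with adjusted p = 0.067. Without the parental library it was 0.52 (adjusted p = 0.349).

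Foxo6, a FOXO gene known mainly from brain and liver, stood at 1.93 and 2.65 against 7.57 and 8.34 CPM. The groups did not overlap, and the log2 fold change of 1.79 (SE 0.39) came close to the threshold (adjusted p = 0.0554, edgeR; 0.00325 by DESeq2). The transcript Foxo6os, annotated beside it on the other strand, had at most 1 count in any library. Foxo4 stood at 59.8 and 61.4 CPM against 75.3 and 74.7 CPM (log2 fold change 0.31, adjusted p = 0.389), and Foxo1, the FOXO gene most studied in insulin action, at 49.6 and 42.6 against 42.1 and 46.3 CPM, a log2 fold change of -0.06 (edgeR adjusted p = 0.909). Foxo1 was the only one of the 4 FOXO genes whose groups overlapped. Of all genes tested, 27.1% had both fusion libraries above both controls and 24.2% below, so non-overlap is common.

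Genes that act with FOXO factors were taken from lists. Of 13 tested regulators, among them the AKT and PI3-kinase genes, 0 passed (median log2 0.07); Usp7 and Ywhaz, the most abundant, had log2 fold changes of -0.12 and 0.12. Of 18 tested FOXO targets 1 passed, Sesn1 (background 2.83% higher and 0.581% lower). This gene encodes the stress protein sestrin 1 and is also a p53 target. Sesn1 rose from 11.4 and 10.9 CPM to 83.8 and 58 CPM (log2 fold change 2.67, SE 0.25, adjusted p = 0.00847). The median of the 18 targets was -0.04.

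**Figure D3:**
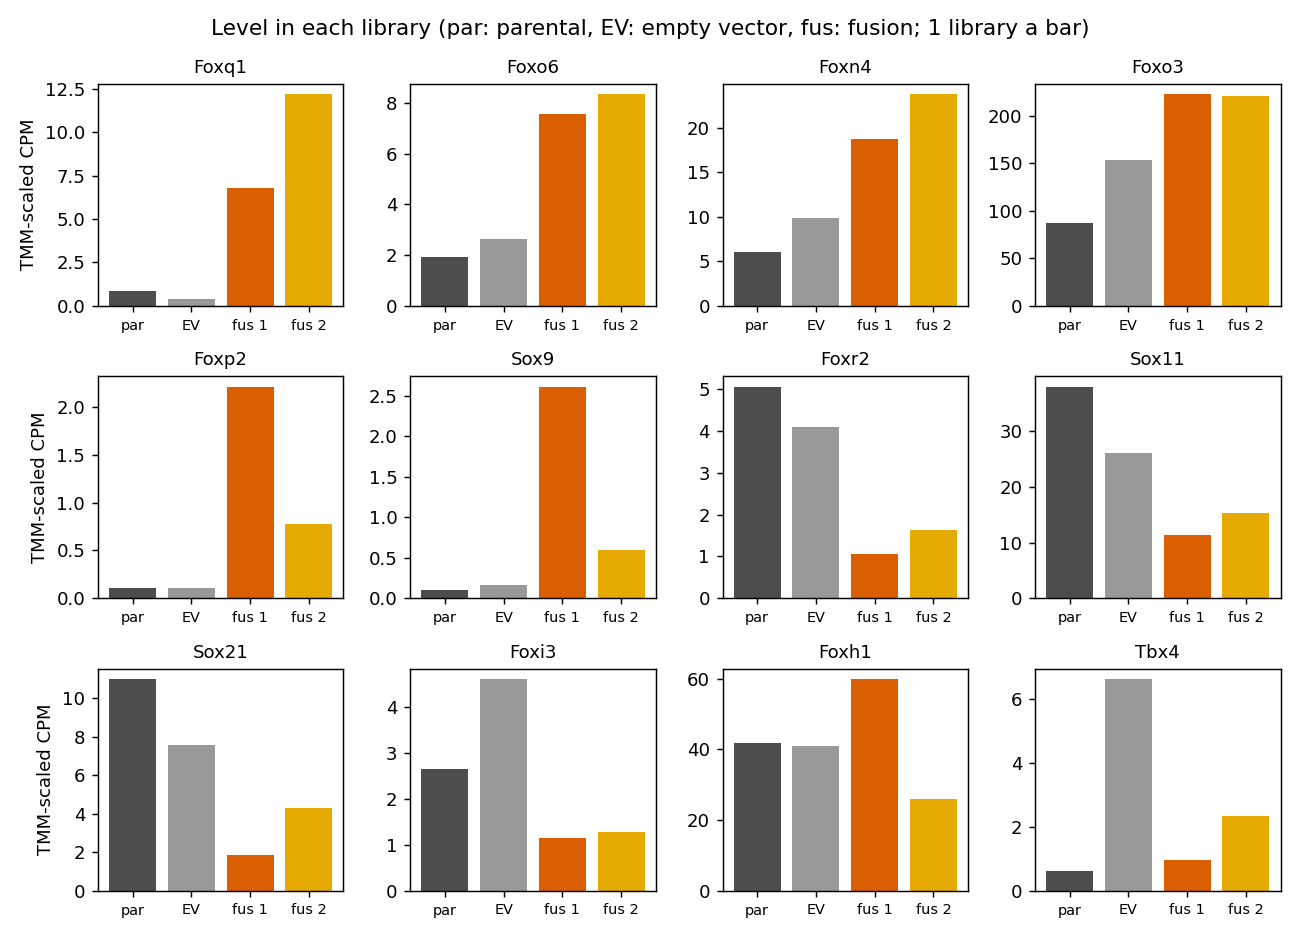
TMM-scaled CPM in each library, 1 library a bar with no error, for 12 genes. Foxq1, Foxo6, Foxn4, Foxo3, Foxp2 and Sox9 have both fusion bars above both wild-type bars, Foxr2, Sox11, Sox21 and Foxi3 have them below, and in Foxh1 and Tbx4 the groups overlap.

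Among the other forkhead genes with differences, Foxn4 directs amacrine and horizontal cell fates in the retina and interneurons in the spinal cord. It stood at 6.09 and 9.87 against 18.8 and 23.8 CPM, a log2 fold change of 1.42 (SE 0.33, adjusted p = 0.0692, edgeR; 0.00393 by DESeq2). Its groups did not overlap.

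Promoter windows were taken from RefSeq (GRCm38.p6, 250 bases before to 50 after a start site), where 44 of the 65 genes had 55 windows; Foxq1, Foxo6, Foxp2 and Sox9 had none. The 4 windows printed belong to the genes with the smallest unadjusted p in each direction that had one, Foxo3 and Foxn4 (higher) and Sox11 and Foxr2 (lower), although none of the 4 passed. Each is read 5′ to 3′ on the gene's strand, and capitals mark the motif letters listed after them. Foxo3 is chr10:42276646-42276945 (minus strand), Foxn4 chr5:114273712-114274011 (minus), Sox11 chr12:27342669-27342968 (minus) and Foxr2 chrX:153118538-153118837 (plus).
Foxo3: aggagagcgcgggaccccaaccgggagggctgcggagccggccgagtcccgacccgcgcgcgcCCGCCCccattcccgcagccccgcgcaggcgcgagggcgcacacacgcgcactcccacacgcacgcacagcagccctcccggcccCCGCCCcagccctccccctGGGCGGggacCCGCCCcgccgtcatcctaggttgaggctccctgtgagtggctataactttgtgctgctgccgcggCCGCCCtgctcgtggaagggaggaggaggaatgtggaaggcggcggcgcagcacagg
Foxn4: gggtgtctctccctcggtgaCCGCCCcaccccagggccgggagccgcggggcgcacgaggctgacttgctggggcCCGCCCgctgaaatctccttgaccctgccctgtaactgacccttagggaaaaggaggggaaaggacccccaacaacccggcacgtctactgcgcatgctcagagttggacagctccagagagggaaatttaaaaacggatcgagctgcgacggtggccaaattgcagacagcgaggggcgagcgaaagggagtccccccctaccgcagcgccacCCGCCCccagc
Sox11: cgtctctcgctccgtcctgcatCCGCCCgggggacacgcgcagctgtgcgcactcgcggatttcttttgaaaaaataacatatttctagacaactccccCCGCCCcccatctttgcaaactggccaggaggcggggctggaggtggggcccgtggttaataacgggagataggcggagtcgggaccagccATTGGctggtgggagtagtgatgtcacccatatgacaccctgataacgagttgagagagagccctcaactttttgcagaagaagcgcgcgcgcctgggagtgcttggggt
Foxr2: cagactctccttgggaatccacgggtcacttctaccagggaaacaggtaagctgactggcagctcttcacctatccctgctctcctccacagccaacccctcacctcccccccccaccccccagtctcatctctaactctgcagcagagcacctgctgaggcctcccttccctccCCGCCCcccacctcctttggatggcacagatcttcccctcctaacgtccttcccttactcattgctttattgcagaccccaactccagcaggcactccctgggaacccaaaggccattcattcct

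The Foxo3 window was 75% G and C with 35 CG pairs, Foxn4 65.3% with 22, Sox11 58.7% with 21, and Foxr2 58.7% with 3. The Foxr2 window therefore had the base composition of the Sox11 window but far fewer CG pairs. The 7 motifs searched on both strands were the GC box GGGCGG, the CCAAT box CCAAT, the TATA box TATAAA, a forkhead site GTAAACA, a Sox site AACAAT, a T-box site AGGTGTGA and a HOX-PBX site TGATTNAT. The 4 windows held 11 GC boxes and 1 CCAAT box (Sox11), none overlapping, and no match to the other motifs.

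Over the 55 windows of the genes described here the median was 61.3% G and C with 15 CG pairs, against 56.3% and 13 in 21262 windows of protein-coding genes. The GC box was in 58.2% of the 55 and 46.2% of all, the CCAAT box in 43.6% and 38.2%, and the TATA box in 9.09% and 12.6%. A forkhead site was in 1.82% and 3.01%, a Sox site in 5.45% and 9.05%, a T-box site in 0 windows and 1.15%, and a HOX-PBX site in 0 windows and 2.75%. Windows of the tested genes had a median of 21.5 CG pairs and those of the genes too low to test a median of 10.

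The FOXP genes encode repressors that pair through a leucine zipper. Foxp2, known for its part in speech and in brain circuits, had 2 counts in each control and 44 and 17 counts with the fusion, or 0.104 and 0.106 against 2.21 and 0.775 CPM. Replicate 1 was the higher of the fusion libraries, and both lay above both controls. The log2 fold change of 3.74 (SE 0.81) missed the threshold (edgeR adjusted p = 0.0558; 0.0411 by DESeq2). It was 4.31 without fusion replicate 2 (adjusted p = 0.0434) and 2.81 without replicate 1 (adjusted p = 0.267). Foxp4 stood at 77.2 and 83 against 107 and 96.9 CPM, a log2 fold change of 0.35 (edgeR adjusted p = 0.323), and Foxp1 at 86 and 102 against 72.2 and 76.3 CPM, a log2 fold change of -0.34 (adjusted p = 0.362). Foxp1 and Foxp4 thus lay on opposite sides of 0 with groups that did not overlap (background 27.1% above and 24.2% below), and neither passed.

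The lowest log2 fold change of the 36 tested genes was that of Foxr2, a forkhead gene silent in most tissues and known as an oncogene of nervous system tumours. It stood at 5.05 and 4.08 against 1.05 and 1.64 CPM, a log2 fold change of -1.75 (SE 0.46, adjusted p = 0.0885, edgeR; 0.0371 by DESeq2). Genes within 5 Mb of it on the X chromosome were also lower in both fusion libraries, with medians of -0.19 and -0.17 on the log2 scale against the other 3 libraries over 29 genes; their part in the result was not tested. Foxi3, a factor of ectodermal placodes and pharyngeal arches, stood at 2.66 and 4.61 against 1.15 and 1.28 CPM, a log2 fold change of -1.58 (adjusted p = 0.132). Foxa3, a forkhead gene of liver and gut endoderm, had a log2 fold change of -0.93 (2.29 and 3.13 against 1.2 and 1.64 CPM, adjusted p = 0.33), so it did not share the direction of the endoderm markers.

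Forkhead genes tied to pluripotency and Nodal signals did not pass. Foxd3, a repressor needed by early epiblast and neural crest, stood at 15.7 and 24.9 against 20.2 and 12.2 CPM, and the groups overlapped (log2 fold change -0.32, adjusted p = 0.687). Foxh1 stood at 41.7 and 40.9 against 59.8 and 26 CPM, fusion replicate 1 being the high library. The wild-type libraries lay between the fusion libraries, and the log2 fold change was 0.05 (adjusted p = 0.957). Without fusion replicate 1 it was -0.67 (adjusted p = 0.348).

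Foxh1 lies on chromosome 15, where 80 of 114 expressed genes (at least 10 CPM) within 5 Mb of it were also highest in fusion replicate 1. Their median was 0.45 on the log2 scale in that library against the other 3, and -0.22 in replicate 2, and their part in the Foxh1 values was not tested. The shift was not local, since over 397 expressed genes of the whole chromosome the same medians were 0.336 and -0.163. Of 13 tested genes of the Nodal pathway that act with FOXH1, 1 passed, the receptor gene Acvr1b (background 2.83% higher and 0.581% lower). Acvr1b rose from 54.8 and 47.5 to 108 and 102 CPM (log2 fold change 1.04, SE 0.18, adjusted p = 0.0346), and the median of the 13 was 0.05. Acvr1b also lies on chromosome 15, and the part of the shift there in its values was not tested.

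None of the broadly expressed forkhead genes passed. Foxm1 stood at 111 and 87 against 92.7 and 91.5 CPM, a log2 fold change of -0.11 (SE 0.19, adjusted p = 0.821). Of 18 tested late cell cycle genes controlled with FOXM1, 0 passed (median log2 -0.06); Mybl2 and Top2a, the most abundant, had log2 fold changes of -0.11 and -0.08. Foxk1 and Foxk2, which repress autophagy genes and promote glycolysis, had log2 fold changes of 0.21 and -0.21 (46.4 and 45.5 against 58.3 and 48.3 CPM for Foxk1, and 99 and 62.9 against 61.6 and 78.7 CPM for Foxk2).

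Foxj3 stood at 42.6 and 44 against 54 and 49.7 CPM, a log2 fold change of 0.26, and Foxj2 at 10.6 and 8.43 against 8.77 and 10.9 CPM, a log2 fold change of 0.05. Foxn2 stood at 55 and 67.5 against 64.8 and 57.8 CPM, a log2 fold change of 0.00, and Foxn3, first found as a suppressor of checkpoint mutants, at 43.8 and 50.8 against 26 and 41.5 CPM, a log2 fold change of -0.48. Among these genes the groups of Foxk1, Foxj3 and Foxn3 did not overlap (background 27.1% above and 24.2% below). The adjusted p of each of these 6 genes was at least 0.378 (edgeR). Foxj1, the master gene of motile cilia, and Foxr1 were tested at a mean under 5 CPM and had log2 fold changes of -0.25 and -0.49 with overlapping groups.

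The Sox genes are described by group, since members of a group share most of the HMG box and often act redundantly. In group C, whose genes promote neuronal and mesenchymal progenitor programmes, Sox11 stood at 37.9 and 26.1 against 11.4 and 15.3 CPM. The groups did not overlap, and the log2 fold change of -1.26 (SE 0.29) missed the threshold (edgeR adjusted p = 0.0679; 0.00311 by DESeq2). Sox12 of the same group stood at 79.2 and 72.7 against 50.6 and 74.5 CPM and overlapped (log2 fold change -0.28, adjusted p = 0.576). Sox4, the third gene of group C and not among the 65, had a log2 fold change of -0.67 (81.9 and 81.5 against 51 and 51.9 CPM, adjusted p = 0.0909).

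Group B2 holds Sox14 and Sox21, repressors that counteract SOX1 to SOX3. Sox21 stood at 11 and 7.58 against 1.85 and 4.33 CPM, a log2 fold change of -1.58 (SE 0.49, adjusted p = 0.132, edgeR; 0.0381 by DESeq2). Both fusion libraries lay below both controls, and replicate 1 was the lowest. Sox21 lies near the end of chromosome 14, at 118233232 to 118237030. Of 21 expressed genes within 5 Mb of it, 18 were lowest in fusion replicate 1, with a median of -0.84 on the log2 scale against the other 3 libraries. The median of the same genes was 0.35 in replicate 2, a ratio in which the low library is part of the comparison. The part of these neighbours in the Sox21 result was not tested. Without fusion replicate 1 the log2 fold change of Sox21 was -1.10 (adjusted p = 0.408), and without replicate 2 it was -2.32 (adjusted p = 0.0816). Sox14 had 1 count in each wild-type library and 0 in the fusion libraries.

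**Figure D4:**
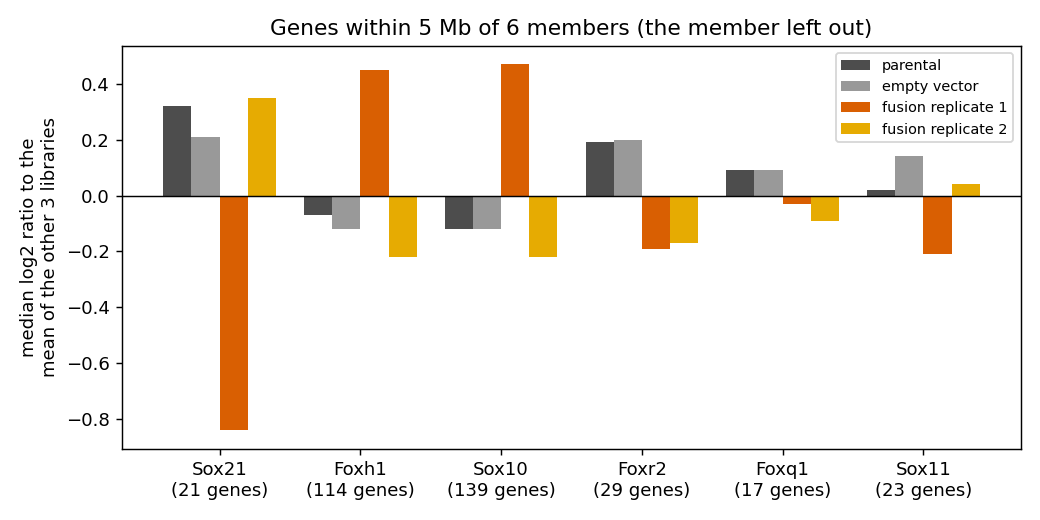
Median log2 ratio of a library to the mean of the remaining 3, over expressed genes (at least 10 CPM) within 5 Mb of 6 of the genes described, each left out of its own median. The genes around Sox21 are low in fusion replicate 1 (-0.84) and those around Foxh1 and Sox10 are high in it (0.45 and 0.47), while the medians around Foxq1 stay between -0.09 and 0.09.

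Group E holds Sox8, Sox9 and Sox10, which act in neural crest, testis, glia and cartilage. Sox9 had 2 and 3 counts against 52 and 13, or 0.104 and 0.159 against 2.61 and 0.593 CPM. The log2 fold change of 3.54 (SE 0.92) missed the threshold (edgeR adjusted p = 0.0903), and it was 4.24 without fusion replicate 2 (adjusted p = 0.0395) and 2.12 without replicate 1 (adjusted p = 0.416). Sox10 stood at 1.46 and 1.06 against 2.76 and 2.28 CPM, a log2 fold change of 0.99 (adjusted p = 0.292). It lies on chromosome 15, where 98 of 139 expressed genes within 5 Mb were highest in fusion replicate 1, and their part in this value was not tested. Sox8 stood at 1.2 and 0.265 against 1.5 and 2.46 CPM, a log2 fold change of 1.43 (adjusted p = 0.329). It was 0.71 without the empty vector and 2.87 without the parental library. None of the 3 group E genes passed, and Sox8 and Sox9 had entered the test through the fusion libraries. Sox8 overlaps the transcript 2810468N07Rik on the opposite strand, with 12 to 39 counts a library, and whether counting used strand was not given in the sources used here.

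Group D holds Sox5, Sox6 and Sox13, which lack an activation domain of their own and in cartilage work beside SOX9. Sox13 was the abundant one, at 74.7 and 55.6 against 70.8 and 59.2 CPM, a log2 fold change of -0.00 (SE 0.22, adjusted p = 0.995). Sox6 stood at 0.99 and 0.743 against 1.8 and 1.19 CPM, a log2 fold change of 0.78 (edgeR adjusted p = 0.463), and Sox5 had at most 7 counts in any library. Of 9 tested cartilage genes controlled by SOX9 with SOX5 and SOX6, 1 passed, the collagen IX gene Col9a2 (background 2.83% higher and 0.581% lower). Col9a2 rose from 14.6 and 19.4 to 50.6 and 76 CPM (log2 fold change 1.90, SE 0.28, adjusted p = 0.0227), and the median of the 9 was 0.72. Col2a1, the best-known SOX9 target and named after its values were seen, stood at 15.2 and 9.55 against 7.72 and 16.3 CPM.

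Sox15 stood at 11.6 CPM in the parental library, 25.3 CPM with the empty vector, and 26.7 and 29.3 CPM with the fusion, a log2 fold change of 0.60 (SE 0.37, adjusted p = 0.438). The 3 libraries of EB3-derived cells lay together and the parental library apart. Its annotated span overlaps Mpdu1 on the opposite strand, which had 1291 to 2002 counts a library. Sox30, a factor of male germ cells, stood at 0.625 and 0.743 against 0.351 and 0.228 CPM, a log2 fold change of -1.23 (adjusted p = 0.305).

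The T-box genes tested were Tbx4, Tbx20 and Tbx21, and none passed. Tbx4, a gene of hindlimb, allantois and lung mesenchyme, stood at 0.625 CPM in the parental library, 6.63 CPM with the empty vector, and 0.952 and 2.33 CPM with the fusion. The empty-vector library stood alone, and the log2 fold change was -1.14 (SE 0.98, adjusted p = 0.594). Without the empty vector the direction turned, to 1.37 (adjusted p = 0.457). The neighbouring gene Tbx2 had 7 and 7 counts against 9 and 16, and Brip1 on the other side of Tbx4 stood at 19.2 and 18.7 against 22.3 and 24.3 CPM, so neither shared the high empty-vector value of Tbx4. Bcas3, beyond Tbx2, was highest with the empty vector at 60.8 and 89.3 against 52.5 and 75.8 CPM. Tbx20, a heart factor, stood at 2.71 and 1.8 against 1.7 and 0.73 CPM, a log2 fold change of -0.89 (edgeR adjusted p = 0.448), and Tbx21, which encodes the T cell factor T-bet, at 1.2 and 0.53 against 0.401 and 1.14 CPM, a log2 fold change of -0.16 (adjusted p = 0.932). Its sign turned when the parental library (0.53) or fusion replicate 1 (0.40) was left out.

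Between single libraries of 1 group there is no replicate error, and differences were described as at least 2-fold apart with 1 CPM or more in the higher library and a prior count of 2. Between the wild-type libraries 4 of 31 genes were that far apart (background 8.74%). Tbx4 and Sox15 were higher and Tbx21 and Sox8 lower with the empty vector. Between the fusion libraries 8 of 36 were (background 10.3%): Tbx4, Tbx21 and Sox21 were higher in replicate 2, and Sox9, Foxp2, Tbx20, Foxh1 and Foxl2 higher in replicate 1. Tbx4 and Tbx21 appear in both lists.

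The other 29 genes were too low to test: 19 Fox, 2 Sox and 8 Tbx genes. All but Foxl2 stayed under 1 CPM in each library, and Foxe3, Foxi1 and Foxl1, which act in lens, ionocytes and gut mesenchyme, had 0 counts in all 4. A count of 0 limits a library to 3 counts, so lower levels could not be seen at this depth.

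Foxl2, which maintains ovarian granulosa cells, had 3 and 4 counts against 31 and 7. The transcript Foxl2os, annotated on the opposite strand and overlapping it, had 4, 3, 21 and 7 counts in the same order, so reads of the pair may not be separable. Tbx18, an epicardial factor, had 1 control count against 17 with the fusion (ratio 15.4, 95% exact binomial interval 2.42 to 646). Foxs1, a gene of pericytes and sensory neurons, had 1 against 13 (ratio 11.8, interval 1.77 to 502), and Tbx1, a pharyngeal factor, 3 against 19 (ratio 5.75, interval 1.69 to 30.4). These intervals lie above 1, but the 3 genes were picked for their values and the intervals count reads only.

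A second forkhead cluster, on chromosome 8, holds Foxf1, Foxc2 and Foxl1. Foxf1, a factor of lung and gut mesenchyme, had 3 control counts against 12 with the fusion (ratio 3.63, interval 0.981 to 20.1), and Foxc2, a lymphatic and mesodermal factor, had 4 against 13 (ratio 2.95, interval 0.912 to 12.4). Both intervals include 1. Over 549 expressed genes of chromosome 8 the median was 0.408 on the log2 scale in the parental library against the remaining libraries. The part of that shift in these counts was not tested. The annotated gene Gm20388 spans all 3 on the same strand with 386 to 1246 counts a library, so the split of reads there is uncertain.

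Tbx15 had 6 to 11 counts a library, Foxe1 of the thyroid 1 to 8, Foxd1 2 to 6, Foxd2 1 to 6, Foxd4 1 to 4 and Foxn1 of the thymus 2 to 5. Tbx19, which activates the pituitary hormone gene Pomc, had 2 and 4 counts in the wild-type and 0 in both fusion libraries. Foxb1, Foxb2, Foxi2, Foxp3, Tbx5, Tbx10 and Tbx22 had at most 3 counts in any library.

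The list of relatives outside the 65 genes holds those left out by name and family members with other kinds of symbol, such as T and Sry. Of 16 such genes 14 were tested and 5 passed, all higher in the fusion cells (background 2.83% higher): Foxa2, Sox1, Sox7, Sox17 and Tbx3. Foxa2, Sox7 and Sox17 had enough counts to be tested through the fusion libraries only. The direction of these genes was thus partly fixed in advance, which limits the comparison with the background. By the rule 4 of them are named with values. Sox17 and Sox7, endoderm and vascular factors of Sox group F, both rose. Sox17 stood at 0 and 0.159 against 6.97 and 6.75 CPM and Sox7 at 0.26 and 0.424 against 19 and 11.4 CPM. Foxa2, a pioneer factor of endoderm, rose to 3.81 and 2.1 CPM with the fusion against 0.26 and 0.106 in the controls. Tbx3, a T-box gene of naive pluripotent cells and endoderm, rose to 524 and 418 CPM against 47.6 and 82.5 (log2 fold change 2.86, SE 0.3, adjusted p = 0.00863, edgeR). The rule left out these relatives by name, and their difference from the 65 genes was not tested. Of 19 tested HMG-box genes outside the Sox family 1 passed, Hmgxb4 (background 2.83% higher and 0.581% lower). Hmgxb4 fell from 179 and 171 to 66.2 and 81.8 CPM (log2 fold change -1.24, SE 0.19, adjusted p = 0.0233, edgeR). The median of the 19 was -0.11.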

How the data were processed

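Stranded libraries of poly(A) RNA from 4 EB3 samples were sequenced (per the labels' protocols). Per the file headers, each deposited table holds RSEM expected counts (estimated, so 9.16% to 10.18% of values are not whole), TPM and FPKM; the deposited FPKM values were not used. The submitters' processing notes list STAR 2.7.10a, RSEM 1.3.3, DESeq2 1.36.0 and the build GRCm38/mm10. Which annotation and strand setting were used was not given in the sources used here.

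Expected counts were rounded and tested in edgeR 4.0.16 (R 4.3.3) with TMM scaling, filterByExpr (minimum count 10) and robust quasi-likelihood dispersion, over 16511 genes, with Benjamini-Hochberg adjustment at 0.05. Fusion (2 libraries) was compared with wild type (2 libraries), which leaves 2 residual degrees of freedom. The SE is the absolute log2 fold change divided by the square root of the F statistic. The fit was tested on simulated data. Alternatives covered scaling (library totals, size factors of DESeq2), filtering (none, or 1 CPM in at least 2 libraries), a non-robust fit, the Wald test of DESeq2 1.42.0, limma 3.58.1 on log2(TPM + 1), each control alone, a minimum fold of 2, and each library left out over the same genes. Of the gene identifiers 99.5% matched the annotation. The members and lists were chosen with earlier results of these data known. The values of 1 member are not reported here. Values in each library are given for members past the threshold or with a mean of at least 5 CPM; other members are given by value or range, and each list by up to 4 members past the threshold (the largest changes), otherwise its 2 most abundant.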

Additional observations from a re-analysis of the deposited data

How the results depend on the processing

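The depth limits members under 1 CPM to a few reads, and 2 libraries a side limit the precision of every fold. Of the 36 tested genes and the low ones, those called higher in the fusion cells numbered 7 with no filter (Foxf2, Foxn4, Foxo3, Foxo6, Foxp2, Foxq1 and Sox9), 4 by DESeq2 (Foxn4, Foxo6, Foxp2 and Foxq1), and 0 against the parental line alone and 0 against the empty vector alone. They numbered 1 to 3 with 1 library left out (Foxo3 joined without the empty vector, and Foxp2 and Sox9 without fusion replicate 2). Those called lower numbered 4 with no filter (Foxi3, Foxr2, Sox11 and Sox21), 3 by DESeq2 (Foxr2, Sox11 and Sox21) and 0 in each left-out fit. Over all genes, 468 higher and 96 lower became 1315 and 631 with no filter, 919 and 436 by DESeq2, 84 and 20 against the parental line, and 64 and 18 against the empty vector. With 1 library left out they ranged from 155 higher and 10 lower (without fusion replicate 1) to 368 and 192 (without fusion replicate 2), with 220 and 66 without the parental library and 250 and 70 without the empty vector. With a floor of 5 CPM, 2 of 22 members were at least 2-fold apart between the wild-type libraries (5.41% of all genes) and 1 of 21 between the fusion libraries (6.39%). The log2 fold change changed sign for 8 of the 22 members with a mean of at least 5 CPM, in 26 of 286 values, and outside these 22 also for Foxj1, Tbx4 and Tbx21. The cause was not tested. Against the parental line alone Foxd3 had 0.05 and Foxj2 -0.11. Against the empty vector alone Foxk2 had 0.16, Foxm1 0.08, Foxn2 -0.14, Foxo1 0.05 and Sox13 0.22. Foxn2 had -0.01 with DESeq2's size factors, -0.02 with no filter and -0.01 by DESeq2. With library totals Foxo1 had 0.01 and Sox13 0.06, and by limma both had 0.04. With 1 library left out, values ranged from -0.73 to 0.03 for Foxd3, -0.67 to 0.53 for Foxh1, -0.13 to 0.21 for Foxj2, -0.51 to 0.15 for Foxk2, -0.29 to 0.07 for Foxm1, -0.15 to 0.14 for Foxn2, -0.18 to 0.04 for Foxo1 and -0.22 to 0.22 for Sox13. No paired analysis was possible because the labels give replicate numbers to the fusion libraries only.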
